A study of Mus musculus with 32 samples.

Results

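The chemokines described here are 9 mouse genes chosen by symbol: Cxcl1, Cxcl2, Cxcl5, Cxcl9, Cxcl10, Cxcl12, Cxcl14 and Cxcl16 of the CXC family, and Cx3cl1, the CX3C chemokine. They are 9 of the 57186 genes in the deposited table. Of the 9, 8 had a count in some library and the same 8 were among the 14428 genes tested. RNA came from 3T3-L1 cells, a mouse preadipocyte line that had been differentiated into adipocytes with insulin, dexamethasone and IBMX. The cells were then treated for 24 h, in 8 groups of 4 libraries each. A group received DMSO (the vehicle), SCO, CAP7 or rosiglitazone (ROSI), and each of these was given alone or together with tumour necrosis factor alpha (TNF). Cells given DMSO alone are called untreated.

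Rosiglitazone activates PPARγ, a nuclear receptor and the main regulator of adipocyte genes, and served here as the comparison for PPARγ targets. The series title names an extract of the plant Artemisia scoparia. The sources used here give neither what SCO and CAP7 contain nor any dose. Per the labels, libraries of 1 group are biological replicates, and no batch or day is named, so p-values measure the spread between these cultures of 1 cell line.

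Chemokines are small secreted proteins that draw leukocytes along a gradient by binding G protein-coupled receptors. In fat tissue, adipocytes and stromal cells release them when TNF activates NF-κB. The CXC ligands that bind Cxcr2 attract neutrophils and those that bind Cxcr3 attract activated T cells, the latter being induced by interferons as well. Cxcl12 retains cells that carry Cxcr4, while Cxcl16 and Cx3cl1 are made as membrane proteins and are shed by the proteases Adam10 and Adam17.

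Library totals ran from 11312837 to 37675008 counts. Levels are given in CPM, the usual scaling of a count to its library total, here with TMM factors. The labelled cell type was checked against 10 adipocyte markers. Adipoq, which encodes adiponectin, was at 9629 ± 214 CPM (SD, n = 4) in untreated cells and at 2803 ± 259 with TNF. The summed level of the 10 markers had a median of 57400 CPM in untreated cells, 19200 with TNF, and 44400, 45000 and 61800 with TNF plus SCO, CAP7 and ROSI. The 12 fibroblast and preadipocyte markers summed to 3820 CPM in untreated cells and to 2530 with TNF, and then to 1710, 2040 and 1980 with the compounds. In bulk RNA, fewer cells of a type and less RNA per cell cannot be told apart. Of 12 leukocyte markers, Adgre1 and Tyrobp had no count in any group, and Ptprc had 6 counts with TNF, 1 with TNF plus ROSI and 0 in the other 6 groups. The summed leukocyte list went from a median of 14.8 CPM in untreated cells (12.9 to 17.5) to 118 with TNF (95.7 to 130), mostly through S100a8 (12.3 to 103 CPM) and Cd68 (0.942 to 10.5 CPM), and it stood at 118, 140 and 153 with TNF plus SCO, CAP7 and ROSI. The 7 endothelial markers summed to medians of 0.18 to 1.27 CPM, and Cdh5 reached at most 0.0112. The part of the adipocyte, fibroblast and S100a8 and Cd68 changes in the chemokine results was not tested.

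Promoter sequences, the 250 bases before the transcription start, were taken from RefSeq on build GRCm38.p6 and matched 7 of the 9 genes, without Cxcl5 and Cxcl16. They are shown for 4 genes on chromosome 5 that rose strongly with TNF, since 3 of them, but not Cxcl9, held the NF-κB motif. Capitals mark matches to the NF-κB motif and, in Cxcl10 only, to the interferon-stimulated response element (GAAA, any 2 bases, GAAA), which is the first capital run there.
Cxcl1 (chr5:90890995-90891244, plus strand): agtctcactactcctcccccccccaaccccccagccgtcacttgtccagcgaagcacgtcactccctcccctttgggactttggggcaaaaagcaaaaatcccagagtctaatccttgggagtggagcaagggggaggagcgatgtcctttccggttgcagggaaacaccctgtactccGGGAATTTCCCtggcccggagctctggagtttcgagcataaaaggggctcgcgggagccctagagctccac
Cxcl2 (chr5:90903649-90903898, plus strand): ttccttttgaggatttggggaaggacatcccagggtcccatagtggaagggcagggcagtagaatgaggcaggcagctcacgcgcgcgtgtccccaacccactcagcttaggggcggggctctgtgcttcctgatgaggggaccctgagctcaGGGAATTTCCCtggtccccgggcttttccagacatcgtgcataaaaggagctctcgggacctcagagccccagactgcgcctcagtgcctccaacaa
Cxcl10 (chr5:92348890-92349139, minus strand): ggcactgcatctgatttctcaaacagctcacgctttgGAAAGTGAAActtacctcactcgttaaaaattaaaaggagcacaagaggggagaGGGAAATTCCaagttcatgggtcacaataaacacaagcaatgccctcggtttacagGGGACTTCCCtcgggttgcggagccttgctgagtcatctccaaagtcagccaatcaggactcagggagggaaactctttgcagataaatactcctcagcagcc
Cxcl9 (chr5:92328080-92328329, minus strand): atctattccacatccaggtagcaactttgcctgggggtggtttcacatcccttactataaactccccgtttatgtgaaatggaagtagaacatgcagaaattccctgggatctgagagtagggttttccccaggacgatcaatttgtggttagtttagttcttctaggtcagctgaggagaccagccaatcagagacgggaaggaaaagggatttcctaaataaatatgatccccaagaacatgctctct

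Both strands were searched. The same 11 letters matched in Cxcl1, 71 to 61 bases before the start, and in Cxcl2, 97 to 87 bases before it, in each case as overlapping matches on the 2 strands. Cxcl10 held 2 NF-κB matches, at 159 to 150 and at 103 to 94 bases, with the interferon element at 213 to 204 and an AP-1 match (TGACTCA or TGAGTCA) at 74 to 68. Of 32851 promoters of this length, 3.9% held an NF-κB match, 2.98% an interferon element and 4.46% an AP-1 match. No NF-κB match was present in the windows of Cxcl9, Cxcl12, Cxcl14 and Cx3cl1, where a match had to fit every base of the pattern. The gamma-activated site (TTCNNNGAA, in 7.02% of promoters) and an interferon element matched in Cxcl14, and TATAAA (12.4%) matched in Cxcl9 and Cx3cl1. A match describes the letters only and is neither a bound site nor a cause, and a window without one says nothing about the factor.

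TNF raised all 8 tested chemokines in vehicle-treated cells, by log2 differences from 1.05 (Cxcl12) to 8.0 (Cxcl10). Of all tested genes 26.7% were called higher in that comparison, where called means a Benjamini-Hochberg adjusted p under 0.05 in edgeR's quasi-likelihood test. The median log2 difference was 5.30 over the 8 chemokines and -0.01 over all tested genes. All 8 also rose with TNF in SCO (25.0% of all genes higher), in CAP7 (23.4%) and in ROSI (24.9%). Cxcl2, Cxcl9, Cxcl10 and Cxcl16 were near the counting limit without TNF and passed the filter on low counts through the TNF groups, so that their rise was partly a condition of being tested. The 9th gene, Cxcl14, which encodes a constitutively expressed epithelial chemokine, had 0 counts in all 32 libraries. A total of 0 allows up to 3 counts over a group, which is 0.0307 to 0.0497 CPM.

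**Figure D1:**
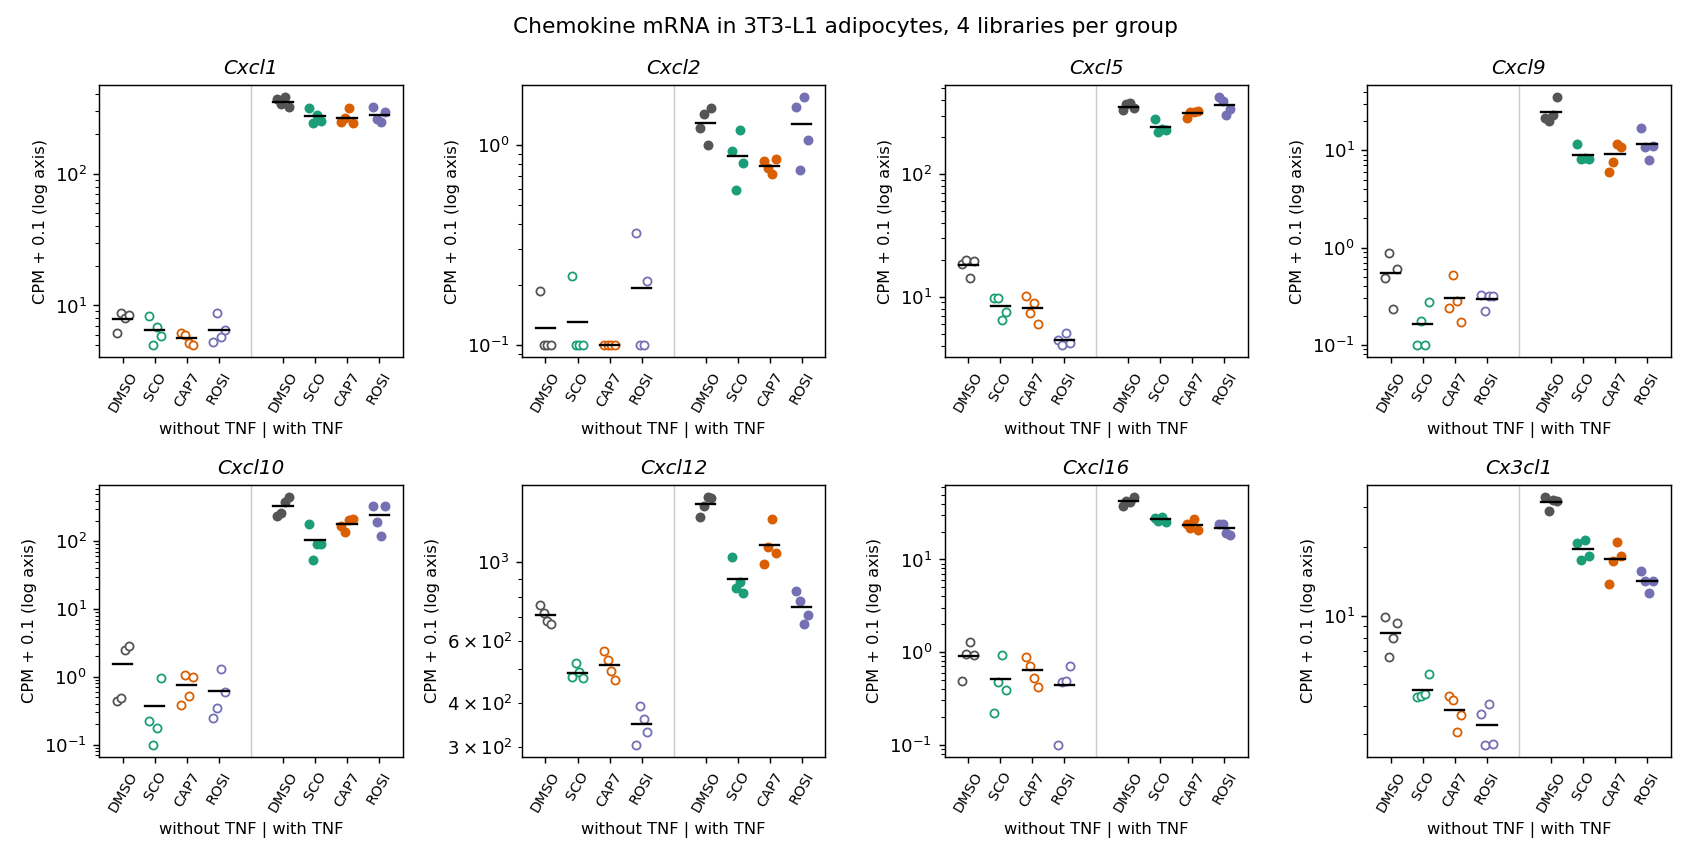
Level of each of the 8 detected chemokines in every library, as CPM + 0.1 on a log axis whose range differs between panels; open points are libraries without TNF, filled points libraries with TNF, colours mark DMSO, SCO, CAP7 and ROSI, and bars are group means (n = 4). With TNF every library of Cxcl1 lay between 242 and 381 CPM, against 4.92 to 8.73 without it, whereas the Cxcl12 libraries of TNF plus ROSI (669 to 831) overlapped those of untreated cells (669.5 to 756).

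The neutrophil chemokine Cxcl1 (ENSMUSG00000029380), a ligand of Cxcr2, read 6.11, 8.73, 7.91 and 8.39 CPM in the 4 untreated libraries and 371, 339, 381 and 319 CPM with TNF. The groups did not overlap, and the level was 45.9-fold higher (log2 difference 5.52 ± 0.14, SE; adjusted p = 8.15e-29). With TNF plus SCO it read 316, 243.5, 279 and 250.3 CPM, with CAP7 247, 265, 314 and 242, and with ROSI 322, 262, 245 and 294. Each compound group lay below TNF alone in its mean, and the TNF plus ROSI group overlapped it through 1 library. The log2 differences from TNF alone were -0.37 ± 0.11 for SCO (adjusted p = 0.00839), -0.40 ± 0.11 for CAP7 (0.00287) and -0.33 ± 0.11 for ROSI (0.0125). The ROSI call was lost when replicate 3 of TNF plus ROSI was left out (-0.27, adjusted p = 0.0638). Between 75.8% and 79.7% of the level with TNF alone remained, and Cxcl1 was still 34.8-fold to 36.5-fold above untreated cells.

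Cxcl2, which encodes the neighbouring Cxcr2 ligand, was the scarcest of the 8 genes to be detected, with 2 counts over the untreated group and 115 over the TNF group. The ratio of these summed counts, each divided by its group's summed TMM-scaled library totals, was 38.6 (95% exact interval 10.4 to 322, counting error only). Both counts without TNF came from replicate 1, and without that library the untreated group was at 0. With TNF the 4 libraries read 1.11, 1.32, 0.901 and 1.44 CPM, and the compound groups 0.494 to 1.08 (SCO), 0.611 to 0.751 (CAP7) and 0.65 to 1.63 (ROSI). None of the 3 compounds was called against TNF alone, with intervals of -1.63 to 0.43, -1.83 to 0.25 and -1.03 to 0.99 on the log2 scale, although the CAP7 libraries lay wholly below those of TNF alone. Within CAP7 the gene went from 0 to 65 counts, at least 20.1-fold against a floor of 3 counts over the group. Within SCO the count ratio was 24.5 (6.56 to 206), with both counts before TNF in replicate 1, and within ROSI it was 10.8 (5.49 to 24.2), with 7 of the 9 counts in replicate 1. Without replicate 1 the fitted log2 rise of Cxcl2 went from 4.35 to 7.07 in SCO, where the rest were at 0, and from 3.39 to 4.76 in ROSI.

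Cxcl5 (ENSMUSG00000029371) encodes another Cxcr2 ligand, one that adipose tissue is known to secrete. It was the only chemokine for which a difference in a compound's effect between cells with and without TNF was called. Without TNF its 4 libraries read 18.5, 19.9, 14.2 and 19.3 CPM with DMSO, 9.68, 9.78, 6.40 and 7.44 with SCO, 10.2, 7.32, 8.83 and 5.95 with CAP7, and 4.38, 3.96, 4.97 and 4.10 with ROSI. All 3 compound groups lay wholly below DMSO, and ROSI lay below the other two. The log2 differences were -1.11 ± 0.14 for SCO (adjusted p = 1.49e-07), -1.17 ± 0.13 for CAP7 (8.16e-09) and -2.04 ± 0.15 for ROSI (3.59e-14). Thus 46.3%, 44.9% and 24.2% of the untreated level remained.

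With TNF, Cxcl5 read 329.5, 369, 378 and 342 CPM with DMSO, 279, 219, 235 and 229 with SCO, 287, 323, 318 and 326 with CAP7, and 422, 393, 302 and 341 with ROSI. Only the SCO libraries and the CAP7 libraries lay wholly below DMSO, and the ROSI libraries lay on both sides of it. SCO lowered the level (-0.56 ± 0.10, adjusted p = 7.85e-05). The CAP7 difference of -0.18 (95% interval -0.39 to 0.03) and the ROSI difference of 0.04 (-0.17 to 0.25) were not called. CAP7 was called when only the 2 groups compared were fitted (-0.19, adjusted p = 0.0412) and when library totals alone set the scale (-0.28, adjusted p = 0.0338). The log2 rise with TNF was 4.30 ± 0.13 in DMSO, 4.85 ± 0.13 in SCO, 5.30 ± 0.13 in CAP7 and 6.38 ± 0.14 in ROSI.

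The difference between these rises was tested as an interaction of each compound with TNF. It was called for 1 of the 8 genes, Cxcl5, with CAP7 (0.99 ± 0.17, adjusted p = 4.47e-05) and with ROSI (2.08 ± 0.18, adjusted p = 3.27e-11). Genes called with a positive interaction made up 10.3% of those tested for CAP7 and 10.1% for ROSI, so 1 of 8 is close to the background share. For SCO none of the 8 was called in edgeR, against 4.64% of all genes in either direction, while 1 had an unadjusted p under 0.05. That 1 was Cxcl5, with an interaction of 0.55 ± 0.18 (adjusted p = 0.0646) and an unadjusted interval of 0.19 to 0.90. It was called by DESeq2 (adjusted p = 0.0276), without the filter, with only the groups compared, and without replicate 3 of untreated cells (0.64, adjusted p = 0.024) or replicate 1 (0.64, 0.0382) or 2 (0.63, 0.047) of SCO alone. For Cxcl1, Cxcl12 and Cx3cl1 the 9 interaction intervals stayed within -0.51 and 0.70. Those that could be computed for Cxcl2, Cxcl9, Cxcl10 and Cxcl16, which had few counts without TNF, were wider.

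**Figure D2:**
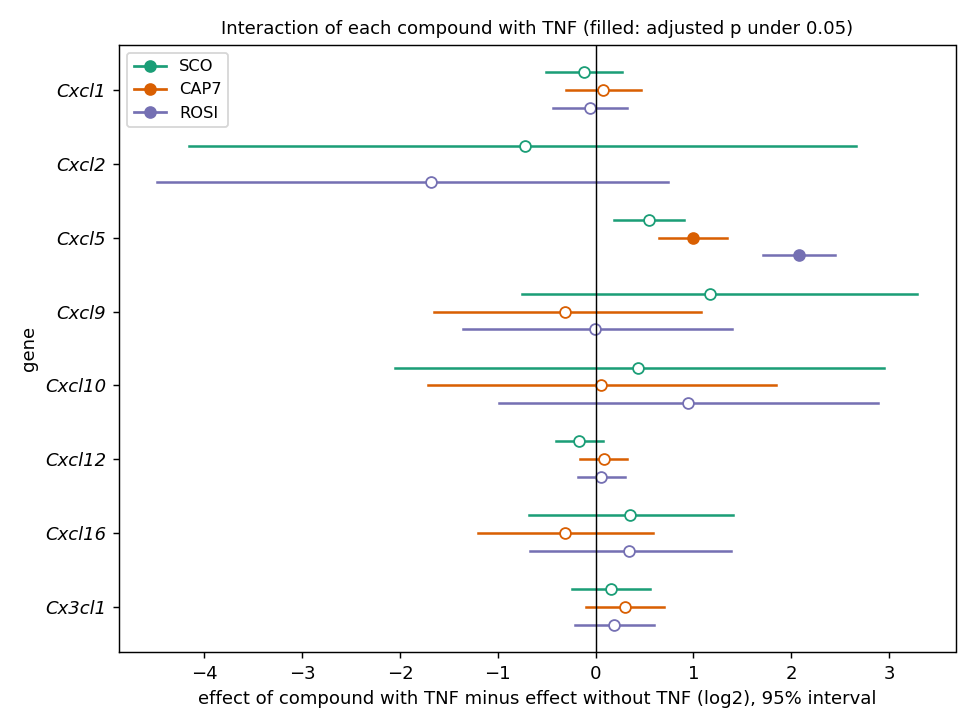
Interaction of each compound with TNF, as the log2 effect with TNF minus that without TNF, with 95% intervals for the 8 tested chemokines; filled points have an adjusted p under 0.05, and Cxcl2 with CAP7 is not drawn because that group was at 0 without TNF. The Cxcl5 estimates rise from 0.55 (SCO) to 0.99 (CAP7) and 2.08 (ROSI), the latter 2 filled, while all other points are open.

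Cxcl9 (ENSMUSG00000029417), a Cxcr3 ligand induced by interferon gamma, read 0.390, 0.777, 0.132 and 0.504 CPM in untreated cells and 21.6, 20.02, 22.8 and 35.0 CPM with TNF. The log2 difference was 5.79 ± 0.33 (adjusted p = 6.84e-18), on 29 against 2453 counts. The compound groups with TNF read 11.5, 8.08, 8.25 and 7.98 CPM for SCO, 5.91, 7.49, 11.7 and 10.9 for CAP7 and 16.9, 10.8, 7.79 and 10.9 for ROSI. All 12 of these libraries lay below all 4 of TNF alone. The log2 difference was -1.47 ± 0.22 with SCO (adjusted p = 1.85e-06), -1.47 ± 0.22 with CAP7 (1.09e-06) and -1.12 ± 0.22 with ROSI (6.34e-05), leaving 36.0%, 36.1% and 46.7%. Without TNF only 4 counts were left with SCO against 29 (-2.64 ± 0.88, adjusted p = 0.0238). That call was lost in limma-voom (adjusted p = 0.25) and without replicate 2 of DMSO (-2.26, 0.102) or replicate 1 (-2.22, 0.077) or 3 (-2.31, 0.0708) of SCO. Without replicate 4 of SCO it was -3.95, and that library held 3 of the 4 counts.

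Cxcl10 (ENSMUSG00000034855), the Cxcr3 ligand also known as IP-10, showed the largest fitted rise of the 8, from 0.347, 0.388, 2.37 and 2.77 CPM to 236.5, 260.6, 379 and 449.6 CPM. The log2 difference was 8.0 ± 0.45 (adjusted p = 4.40e-18). Even in untreated cells its libraries were uneven, with replicates 3 and 4 above replicates 1 and 2. With TNF plus SCO it read 180, 53.5, 92.2 and 89.96 CPM, with CAP7 166.5, 136, 206 and 213, and with ROSI 336, 192, 119 and 335. The SCO and CAP7 libraries lay below those of TNF alone, and the ROSI libraries overlapped them. With SCO the log2 difference was -1.67 ± 0.28 (adjusted p = 1.87e-05), leaving 31.4%. The CAP7 difference was -0.88 ± 0.28 (adjusted p = 0.013), leaving 54.4%. It was lost in DESeq2 (adjusted p = 0.316) and when replicate 4 of TNF alone (-0.70, 0.0688) or replicate 2 of the CAP7 group (-0.77, 0.0536) was left out. The ROSI difference of -0.44 (-1.0 to 0.12) was not called, with 74.1% ± 32.6 (SD) remaining.

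Cxcl10 rose in the compound groups as well, by 8.42 ± 0.56 in SCO, 8.06 ± 0.47 in CAP7 and 8.94 ± 0.50 in ROSI. The SCO value rested on 18 counts without TNF, of which 15 were in replicate 4, and was 10.43 without that library. The ROSI value was 9.75 without replicate 3 of ROSI alone. The related gene Cxcl11, a further Cxcr3 ligand outside the set, went from 0.189 to 16.2 CPM with TNF (6.81 ± 0.58, adjusted p = 5.19e-12). Cxcl11 too was near the counting limit without TNF, so that its rise was partly a condition of being tested. With TNF plus SCO it was at 6.56 CPM (-1.29 ± 0.32, adjusted p = 0.00284), and the values with CAP7 (12.6 CPM) and ROSI (16.6 CPM) were not called. Compared directly with TNF, SCO was lower than ROSI (-1.30), but its difference from CAP7 (-0.93) was not called.

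Cxcl12 (ENSMUSG00000061353), the ligand of Cxcr4 that stromal cells produce without stimulation, ranged from 305 to 1531 CPM over the 32 libraries. It read 756, 721, 684 and 669.5 CPM in untreated cells and 1340, 1448, 1531 and 1523 with TNF, a 2.06-fold rise (1.05 ± 0.08, adjusted p = 1.75e-13) with no overlap. Without TNF it read 474, 517, 488 and 469 CPM with SCO, 562, 530.4, 494 and 464 with CAP7 and 305, 393, 361 and 332 with ROSI. All 3 groups lay below DMSO, and ROSI below the other two, with log2 differences of -0.54 ± 0.08 (adjusted p = 7.54e-06), -0.47 ± 0.08 (3.43e-05) and -1.03 ± 0.08 (1.41e-12). With TNF plus SCO it read 1037, 847, 882 and 818 CPM, with CAP7 990.3, 1107, 1323 and 1061, and with ROSI 831, 779, 669 and 711. None of these libraries reached those of TNF alone, and the differences from TNF alone were -0.71 ± 0.08 (adjusted p = 2.34e-08), -0.38 ± 0.08 (0.000391) and -0.97 ± 0.08 (3.44e-12). The log2 rise with TNF was 1.05, 0.88, 1.13 and 1.10 in DMSO, SCO, CAP7 and ROSI, and no interaction was called.

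Cxcl16 (ENSMUSG00000018920) is a transmembrane chemokine that binds Cxcr6 and also takes up oxidised lipoprotein. It read 0.390, 0.841, 1.19 and 0.839 CPM in untreated cells and 37.9, 42.3, 42.1 and 47.1 CPM with TNF (5.77 ± 0.24, adjusted p = 6.15e-22). The compound groups with TNF lay wholly below these, at 25.1 to 28.7 CPM with SCO, 20.5 to 27.3 with CAP7 and 18.2 to 24.2 with ROSI. The differences were -0.65 ± 0.16 (adjusted p = 0.00185), -0.86 ± 0.16 (3.72e-05) and -0.98 ± 0.16 (3.6e-06). Without TNF, edgeR called ROSI, at 24 against 50 counts (-1.32 ± 0.47, adjusted p = 0.0237). That call was lost with only the groups compared (adjusted p = 0.129) and without replicate 1 of ROSI (-0.75, 0.156) or replicate 2 (-1.28, 0.0518) or 3 (-1.06, 0.115) of DMSO. SCO without TNF missed the threshold (adjusted p = 0.148) and passed it in DESeq2 (-1.02, 0.036), without the filter (0.0486) and without replicate 3 of SCO (-1.58, 0.0413).

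Cx3cl1 (ENSMUSG00000031778), or fractalkine, the membrane-anchored ligand of Cx3cr1, read 9.71, 6.47, 7.84 and 9.15 CPM in untreated cells. With TNF it read 33.2, 28.8, 32.2 and 31.9 CPM, a 3.79-fold rise (1.92 ± 0.13, adjusted p = 2.46e-15). Without TNF the compound libraries read 4.27, 4.33, 4.42 and 5.41 CPM with SCO, 4.31, 4.15, 2.98 and 3.55 with CAP7 and 3.6, 2.60, 3.99 and 2.62 with ROSI. Each of the 12 lay below each DMSO library, by log2 means of -0.85 ± 0.15 (adjusted p = 7.07e-05), -1.14 ± 0.15 (1.40e-07) and -1.36 ± 0.16 (3.43e-09). With TNF they read 20.9, 17.5, 21.5 and 18.3 CPM, 13.7, 17.3, 21.0 and 18.2, and 15.6, 14.1, 12.4 and 14.1, in the same order. Again none overlapped TNF alone, and the differences were -0.69 ± 0.12 (adjusted p = 3.85e-05), -0.84 ± 0.12 (7.52e-07) and -1.17 ± 0.13 (6.42e-10).

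Counted over the 8 genes without TNF, each compound lowered 4 and raised none, where 10.3% (SCO), 15.2% (CAP7) and 18.4% (ROSI) of all tested genes were higher. With SCO these were Cxcl5, Cxcl9, Cxcl12 and Cx3cl1, where 8.99% of all tested genes were called lower. Cxcl10 without TNF had differences of -2.10 (SCO, 95% interval -4.34 to 0.10), -0.94 (CAP7) and -1.38 (ROSI) that edgeR did not call. DESeq2 called it with SCO (-2.39, adjusted p = 0.00957), and without the filter it was called with SCO (1.46e-08), CAP7 (0.00238) and ROSI (5.58e-06). Those were 2 of 7 alternatives with SCO, 1 of 8 with CAP7 and 1 of 7 with ROSI. No fit without 1 library called Cxcl10 in these comparisons, and 15 of its 18 counts with SCO were in replicate 4. With CAP7 the 4 lowered genes were Cxcl1 (-0.48 ± 0.16, adjusted p = 0.0171), Cxcl5, Cxcl12 and Cx3cl1, against 15.0% of all genes. The Cxcl1 call was lost in limma-voom (adjusted p = 0.157) and without replicate 2 of DMSO (-0.41, 0.0699) or replicate 4 of CAP7 (-0.42, 0.0639). With ROSI they were Cxcl5, Cxcl12, Cxcl16 and Cx3cl1, against 19.0%. Cxcl5, Cxcl12 and Cx3cl1 were thus lower with each of the 3 compounds, which were all measured against the same 4 DMSO libraries.

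With TNF, SCO lowered 7 of the 8, against 8.09% of all tested genes, with a median log2 difference of -0.67 over the 8 and 0.01 over all genes. CAP7 lowered 6, against 14.2%, with a median of -0.81 and 0.00 over all genes. ROSI lowered 5, against 16.3%, with a median of -0.70 and 0.00 over all genes. No chemokine was called higher with any compound, where 13.2%, 18.0% and 19.6% of all genes were. Cxcl1, Cxcl9, Cxcl12, Cxcl16 and Cx3cl1 were lower with each of the 3, again against 1 shared set of 4 libraries.

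**Figure D3:**
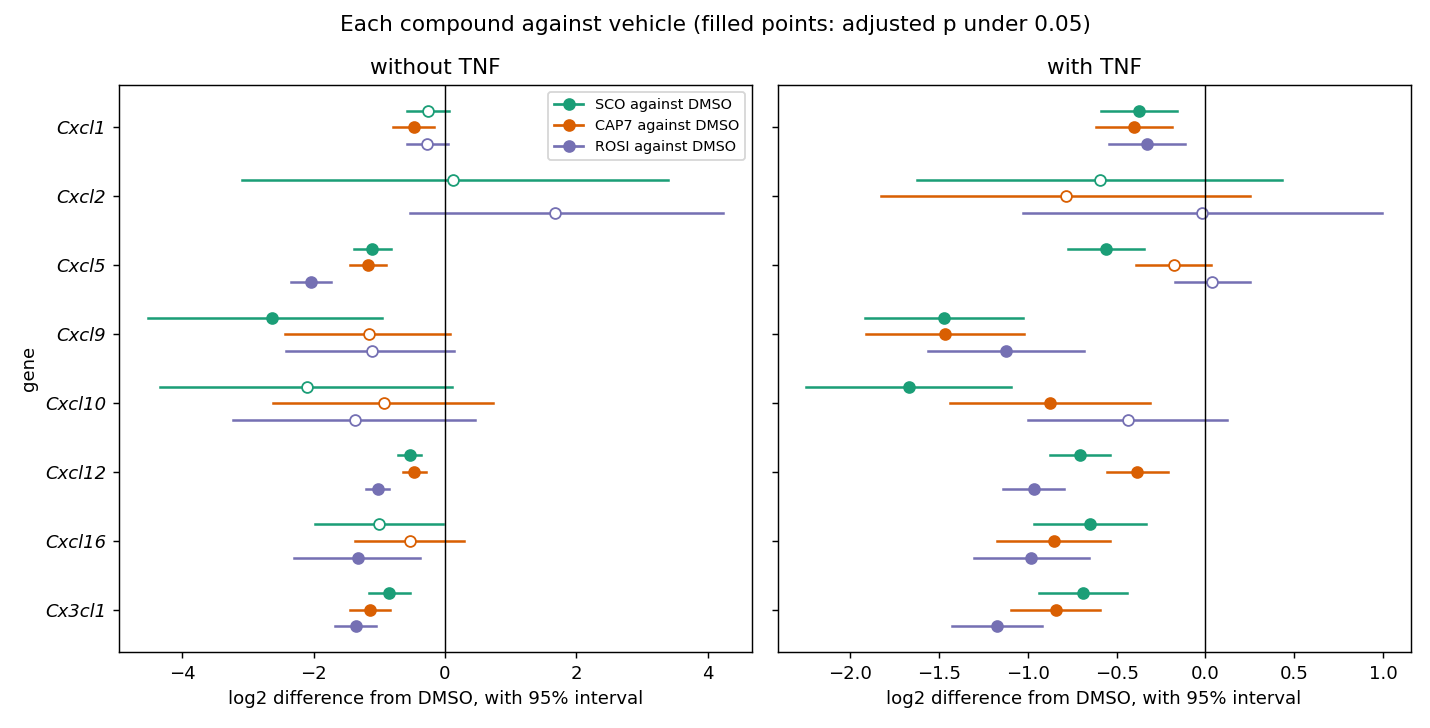
Log2 difference of each compound from DMSO with its 95% interval, without TNF (left) and with TNF (right, on a narrower axis), for the 8 tested chemokines; filled points have an adjusted p under 0.05, and Cxcl2 with CAP7 without TNF is not drawn because that group was at 0. With TNF the Cxcl10 differences run from -1.67 (SCO) to -0.44 (ROSI), the Cxcl12 differences from -0.38 (CAP7) to -0.97 (ROSI), and Cxcl5 from -0.56 (SCO) to 0.04 (ROSI).

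The compounds were also compared with each other directly, in 3 pairs with TNF and 3 without. How the doses compare is not known, so these differences are between the treatments as given. With TNF, SCO against ROSI gave 4 calls among the 8. Cxcl5 (-0.60 ± 0.10, adjusted p = 5.88e-05) and Cxcl10 (-1.23 ± 0.28, adjusted p = 0.00177) were lower with SCO, where 8.66% of all genes were. Cxcl12 (0.26 ± 0.08, adjusted p = 0.0294) and Cx3cl1 (0.48 ± 0.13, adjusted p = 0.00642) were higher, where 5.74% were. The libraries of these groups overlapped for Cxcl10 and Cxcl12. The Cxcl10 call was lost in DESeq2 (adjusted p = 0.186). The Cxcl12 call was lost with only the groups compared (adjusted p = 0.0507) and without replicate 1 of TNF plus SCO (0.18, 0.169), or replicate 3 (0.21, 0.118) or 4 (0.24, 0.0946) of TNF plus ROSI. Cxcl16 missed the threshold but was called higher with SCO in limma-voom (0.36, adjusted p = 0.0235) and with only the groups compared (0.34, 0.0417).

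CAP7 against ROSI with TNF gave 1 call, Cxcl12, which was higher with CAP7 (0.58 ± 0.08, adjusted p = 6.12e-06), where 3.48% of genes were higher. Cx3cl1 missed the threshold but was called higher in limma-voom (0.35, adjusted p = 0.0396) and without replicate 1 of TNF plus CAP7 (0.43, 0.0321). Cxcl10 was called lower without the filter (-0.43, adjusted p = 1.88e-06). For Cxcl9 and Cxcl16 the CAP7 and ROSI intervals were -0.80 to 0.11 and -0.20 to 0.45. SCO against CAP7 with TNF gave 2 calls, both lower with SCO, where 5.03% of genes were lower. These were Cxcl5 (-0.38 ± 0.10, adjusted p = 0.016), lost without replicate 2 (-0.34, 0.0543) or 3 (-0.37, 0.0533) of TNF plus SCO, and Cxcl12 (-0.32 ± 0.08, adjusted p = 0.0108), lost with only the groups compared (0.0553) and without replicate 3 of TNF plus CAP7 (-0.23, 0.0869). Cxcl10 missed the threshold in this pair (-0.79, interval -1.36 to -0.23, adjusted p = 0.0684) and passed it without replicate 1 of TNF plus SCO (-1.20, 0.0064) and in limma-voom (-0.90, 0.0139). For Cxcl1 the intervals of the 3 pairs lay within -0.28 and 0.24 on the log2 scale, and for Cxcl9 SCO and CAP7 differed by -0.01 (-0.46 to 0.45).

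Without TNF, ROSI differed from both others at Cxcl5 and Cxcl12. Against ROSI, SCO was higher at Cxcl5 (0.93 ± 0.16, adjusted p = 5.88e-05), Cxcl12 (0.49 ± 0.08, 6.05e-05) and Cx3cl1 (0.51 ± 0.17, 0.0305), against 7.39% of all genes. The Cx3cl1 call was lost in limma-voom (adjusted p = 0.16), with only the groups compared (0.12) and without replicate 4 of SCO (0.42, 0.138), or replicate 2 (0.43, 0.106) or 4 (0.43, 0.106) of ROSI. CAP7 was higher at Cxcl5 (0.87 ± 0.16, adjusted p = 0.00012) and Cxcl12 (0.56 ± 0.08, 8.28e-06), against 5.39%. Cxcl2 was called lower in that pair (adjusted p = 0.0336, against 6.27% lower) on 0 against 9 counts, a call that was lost in limma-voom (0.244) and without any 1 of the 4 CAP7 libraries (0.0606 to 0.0779) or replicate 1 of ROSI (0.261). SCO against CAP7 called none of the 8 in edgeR, limma-voom or DESeq2, where edgeR called 6.04% of genes in either direction. An unadjusted p under 0.05 was reached by 0 of the 8, and without the filter Cxcl10 was called (-1.17, adjusted p = 0.0417). The intervals in that pair were -0.23 to 0.36 for Cxcl5, -0.24 to 0.10 for Cxcl12 and -0.03 to 0.62 for Cx3cl1.

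How far each compound moved the TNF level back towards untreated cells differed by gene. Against untreated cells all 8 genes stayed higher with TNF plus SCO (25.2% of all genes higher) and with TNF plus CAP7 (21.4%), and 7 of 8 with TNF plus ROSI (24.9%). The exception was Cxcl12 with ROSI, at 747 ± 71.7 CPM against 707 ± 38.7, a difference of 0.08 (-0.09 to 0.25, adjusted p = 0.473). ROSI left 51.2% of the Cxcl12 level of DMSO with TNF and 49.1% without TNF, and the interaction was not called. The share left with ROSI was thus alike with and without TNF. In CPM the rise of Cxcl12 with TNF was 400 in ROSI against 753 in DMSO, or 53.1% of it. Cxcl12 stood at 127% of the untreated level with SCO and 158% with CAP7, and Cx3cl1 at 235%, 212% and 169% with SCO, CAP7 and ROSI. At the other end, Cxcl10 stood at 7070% of the untreated level with SCO, 12300% with CAP7 and 16700% with ROSI. The fitted differences were 80.2-fold, 139-fold and 189-fold, in the same order. The untreated libraries of Cxcl10 were uneven, at 0.347 to 2.77 CPM.

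**Figure D4:**
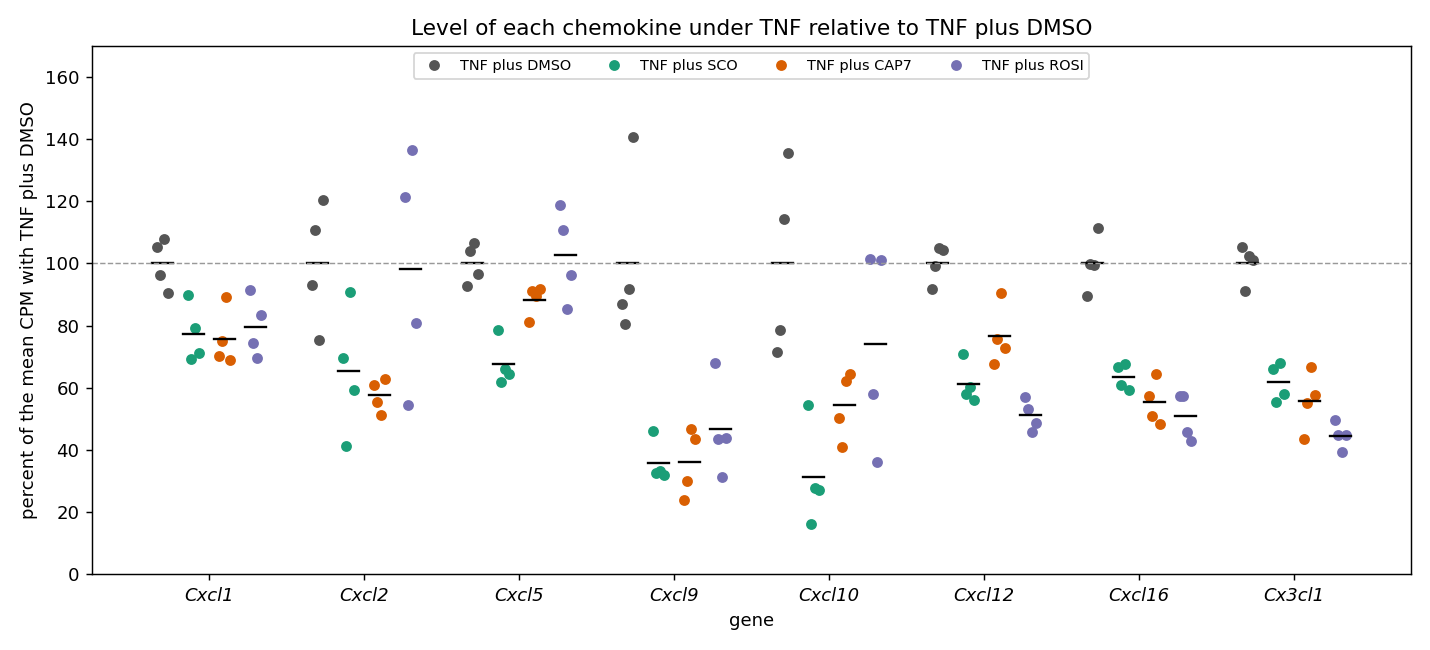
Level of each chemokine in the 16 libraries with TNF, as a percent of the mean with TNF plus DMSO (dashed line at 100); points are libraries and bars are group means (n = 4). SCO has the lowest mean for Cxcl5 (67.8%) and Cxcl10 (31.4%), ROSI the lowest for Cxcl12 (51.2%), Cxcl16 (50.8%) and Cx3cl1 (44.6%), and with ROSI the libraries run from 54.4% to 136% for Cxcl2 and from 36% to 101% for Cxcl10.

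Across the 16 libraries with TNF likeness between genes is given as Pearson correlations of log2 CPM, with no test, over points that share treatment groups and library depth. The value was 0.917 for Cxcl16 with Cx3cl1, 0.874 for Cxcl12 with Cx3cl1 and 0.844 for Cxcl5 with Cxcl10, but 0.136 for Cxcl5 with Cx3cl1. Cxcl1 and Cxcl2, with the same 11 NF-κB letters in their promoters, had r = 0.398 at the low counts of Cxcl2. Among 7587 other genes with at least 16 CPM, those most like Cxcl10 were Ifit1 (0.981), Ifit3b (0.975) and Irgm2 (0.971), and those most like Cxcl12 were Mxra8 (0.959), Gas6 (0.958) and Col5a2 (0.956). Cxcl5 was most like Cxcl11 (0.897), Clic4 (0.889) and Isg15 (0.884). Over all 32 libraries Cxcl5 was most like Relb (0.994) and Cxcl1 most like Nfkb2 (0.995), over points that also differ in TNF.

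Of 11 chemokine receptors, not all of them for these ligands, 6 had a count and only Ackr3, the scavenging receptor for Cxcl12, was tested. It stood at 2.71 ± 0.53 CPM in untreated cells and 2.78 ± 0.50 with TNF, and the difference was not called (0.03 ± 0.25, adjusted p = 0.932). Within CAP7 it rose with TNF, from 1.60 to 3.24 CPM (1.03 ± 0.25, adjusted p = 0.000959). The interaction of CAP7 with TNF was not called for Ackr3 (0.995), so a rise particular to CAP7 is not shown. Ackr3 was lower without TNF with CAP7 (-0.77, adjusted p = 0.0218) and with ROSI (-0.79, adjusted p = 0.0163). Cxcr1, Cxcr3, Cxcr4, Cxcr6 and Ackr1 had no count in any library. Highest group means were 0.0282 CPM for Cxcr2, 0.0108 for Cxcr5, 0.0494 for Ackr2, 0.0579 for Ackr4 and 0.139 for Cx3cr1. The other ligands Cxcl3, Pf4, Ppbp, Cxcl13, Cxcl15 and Cxcl17 stayed below 1 CPM in every group mean, the highest being Ppbp at 0.581 with TNF.

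Of 9 tested genes for shedding and processing proteases and their regulators, 5 rose and 2 fell with TNF in vehicle-treated cells. Of all tested genes, 26.7% rose and 27.5% fell. Adam17, the sheddase of Cx3cl1 and Cxcl16, rose from 51.8 to 150.0 CPM (1.53 ± 0.08, adjusted p = 9.63e-20) and Mmp9 from 1.11 to 20.6 CPM (4.10 ± 0.26). Mmp14 rose from 366 to 627 CPM (0.78), and Mmp2, which cleaves Cxcl12, fell from 151 to 84.5 CPM (-0.84). Timp3, an inhibitor of Adam17, was the other to fall (-0.65). With TNF, 5 of the 9 were lower with SCO (8.09% of all genes), 7 with CAP7 (14.2%) and 6 with ROSI (16.3%), and none was higher. Mmp14 was lower with each compound (-0.71, -0.78 and -1.11, in that order), as was Timp3 (-0.94, -1.10 and -0.64).

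Of a list of 10 genes, most of them for factors that bind or degrade chemokine mRNA, 7 rose with TNF and none fell (26.7% and 27.5% of all genes). Tnfaip3, which was on the list but encodes a ubiquitin-editing enzyme that dampens NF-κB rather than a decay factor, rose from 3.10 to 51.8 CPM (4.04 ± 0.14). Among the mRNA-binding factors, Zfp36, whose protein tristetraprolin binds AU-rich elements, rose from 12.0 to 36.8 CPM (1.63 ± 0.11). With TNF, 2 of the 10 were lower with SCO (8.09% of all genes), 5 with CAP7 (14.2%) and 3 with ROSI (16.3%). Zfp36 was lower with SCO (-0.53), CAP7 (-0.54) and ROSI (-0.76), and so was Zfp36l1 (-0.25, -0.25 and -0.60). Zc3h12a, which encodes the RNase regnase-1, rose by 1.41 ± 0.14 with TNF. It was the 1 gene of the 10 that was higher with TNF plus ROSI than with TNF alone (0.36, adjusted p = 0.0227), where 19.6% of all genes were.

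Of 13 NF-κB subunits and regulators, 11 rose with TNF and 1, Ikbkg, fell (-0.35 ± 0.08), against 26.7% and 27.5% of all genes. The inhibitor gene Nfkbia rose from 244 to 1894 CPM (2.96 ± 0.07), Relb from 11.2 to 87.2 (2.95 ± 0.09), Bcl3 from 7.60 to 103 (3.77 ± 0.12) and Nfkbie from 0.671 to 67.4 (6.64 ± 0.22). With TNF, 5 of the 13 were lower with SCO (8.09% of all genes), 4 with CAP7 (14.2%) and 6 with ROSI (16.3%), and 1, Ikbkg, was higher with CAP7 (0.27, against 18.0% of all genes). Nfkbie was lower with each compound (-0.74, -0.76 and -0.74). Nfkbia was lower with ROSI (-0.20 ± 0.07, adjusted p = 0.0169), while the differences with SCO (-0.06) and CAP7 (-0.06) were not called.

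Of 16 tested genes of interferon signalling, 15 rose with TNF, against 26.7% of all genes. Irf1, a transcription factor that acts on the Cxcl9 and Cxcl10 promoters, rose from 60.2 to 455 CPM (2.92 ± 0.08, adjusted p = 3.25e-27) and Jak2 from 18.2 to 80.8 (2.15 ± 0.10). With TNF, Irf1 was lower with SCO (-0.50 ± 0.08), CAP7 (-0.39 ± 0.08) and ROSI (-0.56 ± 0.08), and Jak2 by -0.63, -0.69 and -0.75. Stat2, which carries the interferon signal, and Irf3 were chosen for mention after their values were seen. Stat2 was lower with SCO (-0.83 ± 0.23, adjusted p = 0.00606) and not called with CAP7 (-0.51) or ROSI (-0.39). In all, 7 of the 16 were lower with SCO (8.09% of all genes), 5 with CAP7 (14.2%) and 6 with ROSI (16.3%). With ROSI 2 of the 16 were higher, where 19.6% of all genes were, among them Irf3 (0.32, adjusted p = 0.0131).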

How the data were processed

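RNA of 32 libraries of 3T3-L1 adipocytes was sequenced by the QuantSeq 3' mRNA method, per the labels' protocols. The authors deposited a table of raw, unscaled read counts with Ensembl genes as rows and libraries as columns. The submitters' processing notes name STAR 2.7.11b and HTSeq 2.0.5, build GRCm39, and also limma 3.60.6, R 4.4.1 and cutadapt 4.9. How reads that map to several genes were handled is not given in the sources used here, so near-identical copies are uncertain. Symbols came from a table of another build by Ensembl ID (51880 genes matched), so coordinates are given for the RefSeq promoters only.

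Counts were fitted in R 4.3.3 with edgeR 4.0.16 (filterByExpr by group, TMM factors, 1 mean per group, all libraries in 1 fit, quasi-likelihood F test). P-values were Benjamini-Hochberg adjusted over the 14428 genes tested in each of 22 comparisons, and genes under 0.05 were called. CPM values use TMM-scaled totals, and intervals are 95% and unadjusted. Alternatives were RLE factors, library totals alone, no filter, limma-voom (limma 3.58.1), DESeq2 1.42.0, a filter at 5 CPM in at least 4 libraries, a replicate block, only the groups compared, and each library left out. The code was tested on simulated counts. The genes, lists and tests were chosen with earlier results of these data known. All 9 chemokines are named, as are the receptors and the other ligands. Of each other list, the 4 genes with the lowest p for TNF in DMSO are eligible, with any of 5 or fewer called against the direction of the rest. Genes most like a chemokine are the 3 with the highest correlation. Some members of the other lists are not reported here.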

Additional observations from a re-analysis of the deposited data

Results flagged for a closer look

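In 6 of 63 groups of 4 libraries that were scanned, 1 library stood far from the other 3 for its gene, by Dixon's criterion. For normally distributed values chance flags about 1 in 20 groups, a rate that does not carry over to groups with few counts or mostly 0. In cells given SCO alone, replicate 4 read 5.41 CPM of Cx3cl1 against 4.27 to 4.42 in the others, and 0.872 CPM of Cxcl10 against 0 to 0.120. Cxcl2 was detected in replicate 1 alone both with DMSO (0.0867 CPM) and with SCO (0.120 CPM), and was at 0 in the other 3 libraries of each group. With TNF plus SCO, replicate 1 read 11.5 CPM of Cxcl9 against 7.98 to 8.25. With ROSI alone, replicate 2 read 0.124 CPM of Cxcl9 against 0.218 to 0.225, which is a difference of few counts.

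The effect of a compound on Cxcl5 differed between cells with and without TNF, as tested by the interaction term in edgeR. The log2 interaction was 0.99 with CAP7 and 2.08 with ROSI. Every library with ROSI alone lay below every library with DMSO alone, whereas with TNF both groups overlapped.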

How the results depend on the processing

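No direction reversed in any alternative among called chemokine results. Of 176 chemokine results, all 176 kept their side of the threshold with RLE factors, 174 with library totals alone and 175 with the replicate block, where SCO against CAP7 with TNF became called for Cxcl10 (-0.83, adjusted p = 0.0288). More calls changed elsewhere: 9 were gained without the filter, 3 gained and 4 lost in limma-voom and again with only the groups compared, 3 gained and 2 lost in DESeq2, and 7 gained and 25 lost over all fits without 1 library, in which 1568 stayed. Replicate numbers showed little pairing of the libraries. The median correlation of deviations was 0.00999 for same-numbered and -0.00447 for differently numbered libraries, and no pair exceeded 0.1. Of 32 libraries, 12 correlated best with their own number. The number of genes called moved by over 1.5 times in 3 comparisons. With only the groups compared it was 791 instead of 1237 for CAP7 against ROSI with TNF, and 738 instead of 1321 for SCO against CAP7 with TNF. With 1 library left out it ran from 523 (without replicate 1 of SCO alone) to 743 instead of 872 for SCO against CAP7 without TNF. With TNF that pair ran from 689 (without replicate 3 of TNF plus SCO) to 1527, with 722 without replicate 1 of TNF plus CAP7. Library totals alone shifted the median of all genes by up to -0.17 (ROSI against DMSO without TNF), and there the share of higher calls went from 49.2% to 27.9%. The causes were not tested. Levels of Cxcl2, Cxcl9, Cxcl10 and Cxcl16 without TNF are limited by counts, and doses and batches are not known.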
